A study of Homo sapiens with 12 samples.

Results

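The 44 genes described here encode proteins that carry a cell through mitosis: the kinases and cyclins that start it, the checkpoint that times chromosome separation, the kinetochore and the spindle motors, and the proteins that finish division. They were taken from the deposited table by gene symbol, as the members of a named list, with no threshold on measured values. All 44 were found among its 26485 genes, and all 44 were among the 15289 genes with enough counts to be tested. The study measured RNA by sequencing in 12 libraries of HepG2, a human liver cancer line, from 4 stably transfected lines seeded in 3 wells each (wells a, b and c). The Empty line has the genotype label WT and received the CRISPR vector with no guide. The Z2, Z5 and Z9 lines carry the label ZHX3-depleted and received vectors with the guides sgZHX3-2, sgZHX3-5 and sgZHX3-9 against ZHX3, a zinc finger and homeobox protein. All 4 lines, the control included, went through lipofection and blasticidin selection. Each guide is represented by 1 line and the control by 1 line, and the labels do not say whether a line is 1 clone or a pool of cells, so the p-values given with the results reflect how wells of the same line vary, not how separately derived lines would.

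Genes of this group are switched on late in the cell cycle, and their messages and proteins peak in G2 and mitosis and are low in resting cells. In textbook accounts many are repressed in resting cells by the DREAM complex and activated in G2 by the MuvB core with B-MYB and FOXM1. Their promoters are known for CCAAT boxes, bound by the trimeric factor NF-Y, and for an element near the start called the cell cycle genes homology region, which the MuvB subunit LIN54 reads. Bulk RNA from a growing culture mixes cells in all phases. Fewer cells in G2 and mitosis and less message in each such cell cannot be told apart in these data.

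Library totals ran from 50864744 counts in Empty well a to 65428204 in Empty well c. ZHX3 itself was read at 32.5 to 34.9 CPM (read counts scaled to the total of each library) over the 12 wells, with log2 differences from Empty of 0.06 for Z2, -0.0040 for Z5 and 0.05 for Z9 that edgeR did not call. Its transcript level therefore does not separate the groups. An edit by CRISPR need not lower a transcript's level, so this neither checks nor contradicts the genotype labels, and Z2, Z5 and Z9 are called the labelled lines here. Of 12 hepatocyte lineage markers, all 12 passed the filter, with AFP at 9965 to 14096 CPM. Their summed level was 56974 to 58069 CPM in Empty and 50842 to 56886 CPM in the labelled lines, so every labelled well was below every Empty well. The 14 markers listed for leukocytes, endothelium and fibroblasts or stellate cells were at or near 0 for PTPRC, CD3E, COL1A2, DCN and LUM, which had 3 counts or fewer each in all libraries together. The summed level ran from 44.1 to 54.4 CPM in Empty and from 47.4 to 75.0 CPM in the labelled lines for leukocyte markers, nearly all of it CD68. The same sum was 6.20 to 6.39 against 6.64 to 8.57 CPM for endothelial markers and 45.8 to 48.1 against 42.4 to 56.4 CPM for fibroblast or stellate markers. The part of such markers in the results was not tested. Z2 well b stood apart from the other wells of its line. Pairs of wells were compared by chi-square per degree of freedom, the variance of the counts relative to that of sampling noise. Well b of Z2 gave 45.8 against Z2 well a and 32.1 against Z2 well c. Z2 wells a and c gave 14.8 against each other, and pairs within the other lines gave 6.31 to 20.7.

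Mitotic genes were lower in all 3 labelled lines than in Empty. In the mean of Z2, Z5 and Z9 against Empty, 38 of the 44 fell and none rose in edgeR's quasi-likelihood test (adjusted p under 0.05 over all genes tested), against 12.6% of all tested genes called lower and 13% called higher. By line, 30 members fell in Z2 (background 11.5%), 26 in Z5 (6.68%) and 40 in Z9 (9.58%). No member rose in any of them, where 12.4%, 8.27% and 9.66% of all tested genes did. None had an unadjusted p under 0.05 upward by edgeR, where 2897, 2356 and 2541 of all 15289 tested genes did. DESeq2 called no member higher, where it called 1960, 1347 and 1564 of 21343 genes higher. The fold changes were small and alike. The median log2 change of the 44 was -0.35 in Z2, -0.33 in Z5, -0.41 in Z9 and -0.38 in the mean, all 44 values were negative in each of these comparisons, and the median over all tested genes in the mean comparison was 0.0029. The members' values in the mean comparison ran from -0.56 for KIF14 to -0.20 for NUF2. The 6 members that did not pass were TTK, PTTG1, NUF2, HMMR, ANLN and ECT2, with adjusted p between 0.0572 and 0.115 and values of -0.20 to -0.32.

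**Figure D1:**
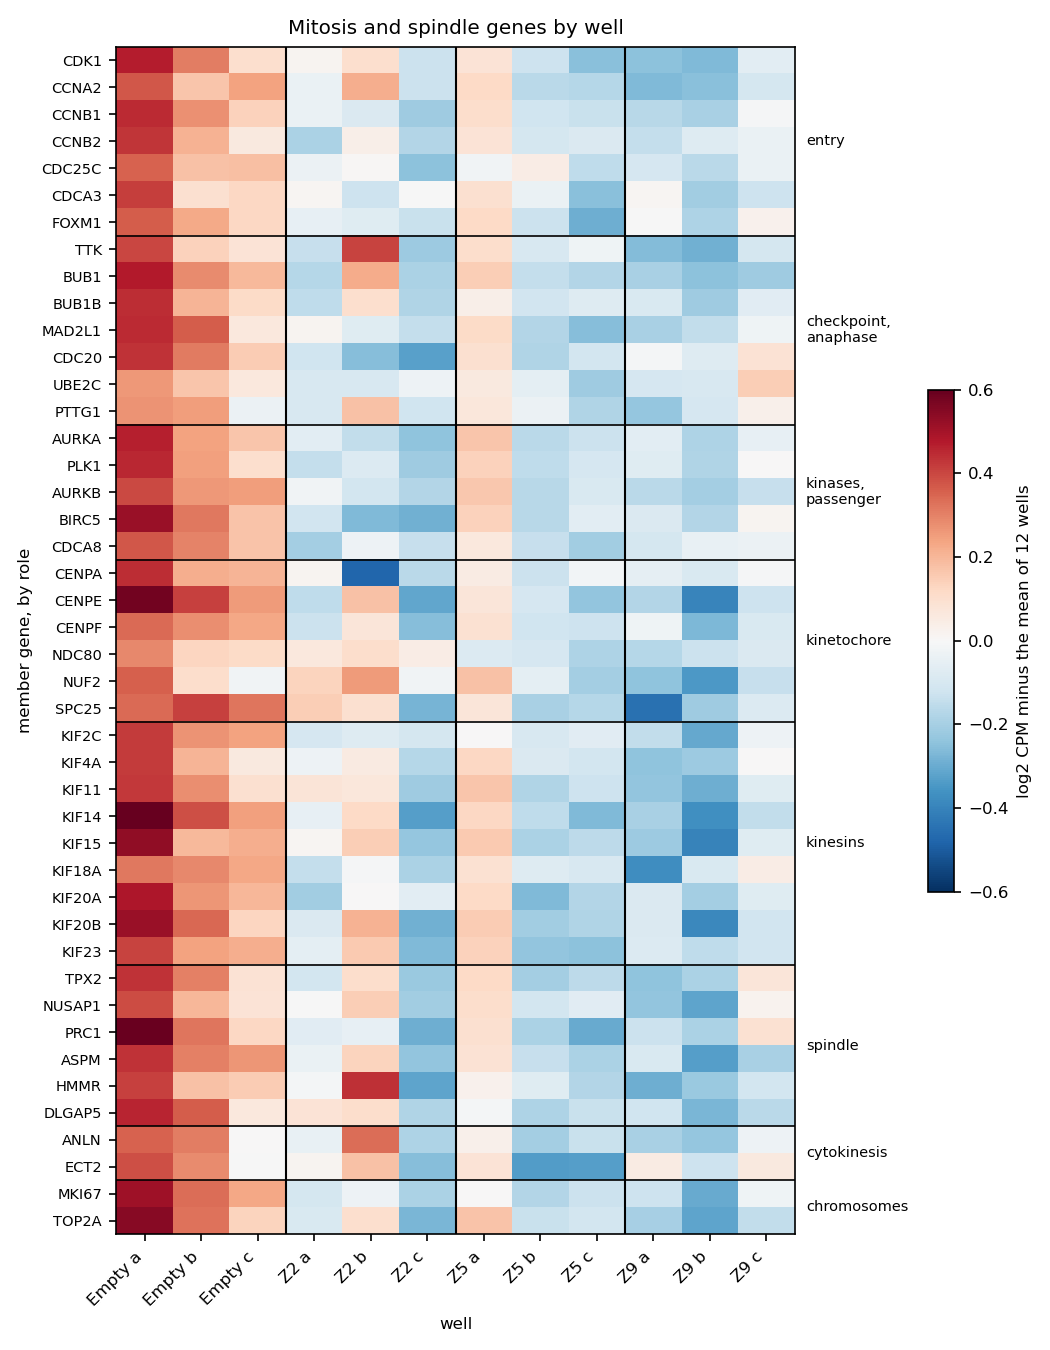
Level of each of the 44 genes (rows, grouped by role) in each of the 12 wells (columns, by line), as log2 CPM minus the gene's mean over the wells. Empty wells are the highest columns for many genes, and for the others labelled wells reach into the Empty range. Empty well a is the highest Empty column for 43 of the 44, and within a line the genes shift together from well to well.

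The Empty wells were not alike, and Empty well a carried part of the count. This well, the least deeply sequenced, gave the highest Empty value for 43 of the 44 genes, where 35.3% of all tested genes had their highest Empty value there. Without it, 14 members were called lower in Z2 (background 6.14%), 4 in Z5 (2.70%), 22 in Z9 (5.53%) and 26 in the mean (6.33%), while all 44 values of the mean comparison stayed negative with a median of -0.30. Single wells of the labelled lines had a similar pull on their own line's count: 16 were called in Z2 without its well c (background 8.65%), 5 in Z5 without its well b (2.75%) and 5 without its well c (2.75%), and 24 in Z9 without its well b (6.08%). The share of all tested genes called lower fell in these fits too. Leaving out Z2 well b, the well that stood apart, gave 32 in Z2 (9.91%) and 42 in the mean (15.7%).

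Read directly from the wells, overlap between the labelled lines and Empty was least in Z9. For 24 of the 44 genes, all 9 labelled wells lay below the lowest Empty well, compared with 8.31% of all tested genes. All 3 wells of a line were below the lowest Empty well for 31 genes in Z2 (17.9% of all tested genes), 30 in Z5 (18.7%) and 41 in Z9 (20.8%). The 3 genes with an overlapping Z9 well were UBE2C, PTTG1 and ECT2. ECT2 had the most overlap, with 5 of its 9 labelled wells at or above the lowest Empty well, followed by PTTG1 and NUF2 with 4 each.

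The 44 genes moved as a block from well to well, so their counts are not 44 separate observations. An index of each well, the mean over the 44 genes of log2 CPM minus the gene's mean over the 12 wells, was 0.43, 0.26 and 0.14 in Empty wells a, b and c. It was -0.06, 0.05 and -0.19 in the Z2 wells, 0.09, -0.14 and -0.16 in the Z5 wells and -0.15, -0.22 and -0.05 in the Z9 wells. All 9 labelled wells were thus below all 3 Empty wells, with Z5 well a, the nearest, short of Empty well c by less than the spread within a line. The line means were 0.28 ± 0.14 (SD, n = 3 wells) in Empty, -0.07 ± 0.12 in wells of Z2, -0.07 ± 0.14 in those of Z5 and -0.14 ± 0.09 in those of Z9. Within lines, the well with the highest value was the same for most genes: Empty well a for 43, Z5 well a for 43, Z9 well c for 37 and Z2 well b for 32 of the 44. As a share of a library's counts, the 44 genes together held 0.185%, 0.163% and 0.148% in the Empty wells and 0.114% to 0.146% in the 9 labelled wells.

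**Figure D2:**
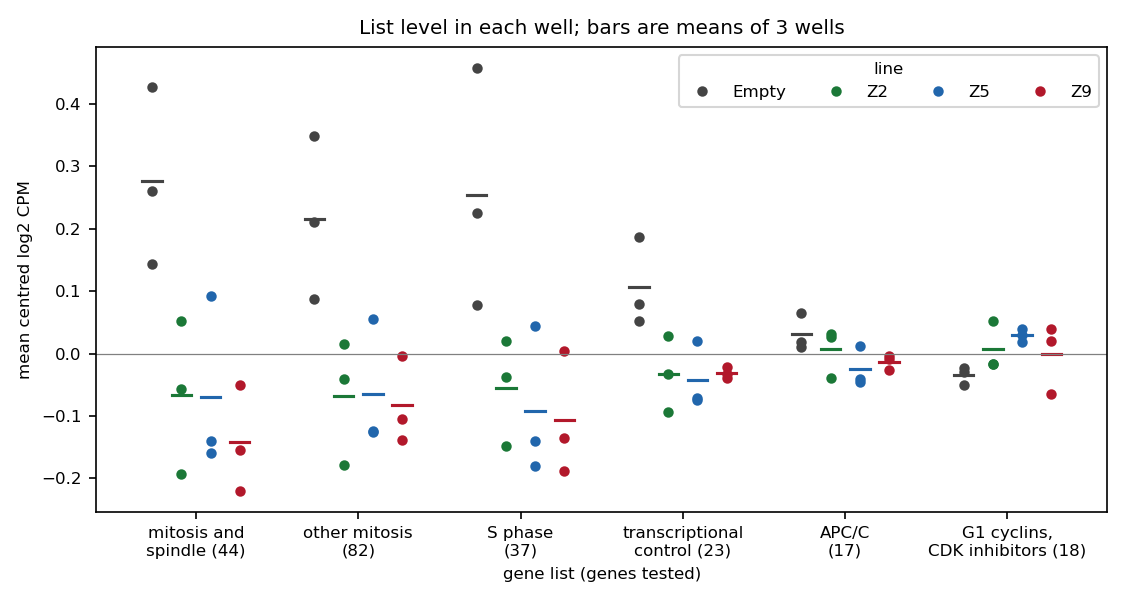
Mean centred log2 CPM per well for the 44 genes and for the other gene lists, with 1 point per well and 1 column per line. For the 44 genes the Empty wells sit at 0.14 to 0.43 and the labelled wells at -0.22 to 0.09. In the lists of S phase genes, of other mitosis genes and of transcriptional control genes every Empty well is likewise above every labelled well, and the anaphase promoting complex subunits stay near 0.

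The promoters of the members share sequence elements that the choice of the genes did not use. RefSeq start sites on GRCh38.p14 gave a window of 300 bases, from 250 before to 50 after the start, for 38 of the 44 (none was used for FOXM1, TTK, UBE2C, AURKA, BIRC5 or TPX2). The letters CCAAT were searched on both strands, as were TTTGAA and TTTAAA, the core forms of the homology region. Matches of different letters may share bases. CCAAT was in 30 of the 38 windows (78.9%), compared with 34.6% of all 35116 windows and 36.3% of the 10899 windows of tested genes. TTTGAA was in 29 (76.3%, compared with 15.2% and 9.90%) and TTTAAA in 14 (36.8%, compared with 12.2% and 7.78%). A window with CCAAT and either form of the homology letters was found for 27 of the 38 members (71.1%), for 9.27% of all windows and for 6.49% of those of tested genes. At least 2 CCAAT were in 18 member windows (47.4%, compared with 10.8% and 13.2%). In 25 members a CCAAT lay before homology letters that began from 100 bases before the start onward. For the nearest such pair in each member, the median distance between first bases was 33. Homology letters further upstream were left out of this count, so CDK1 and TOP2A, with a CCAAT before such letters, are not among the 25. The 27 members with both had a median log2 change of -0.38 and the 11 without both -0.34, in the mean comparison. A match is a description of letters and not a tested site.

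**Figure D3:**
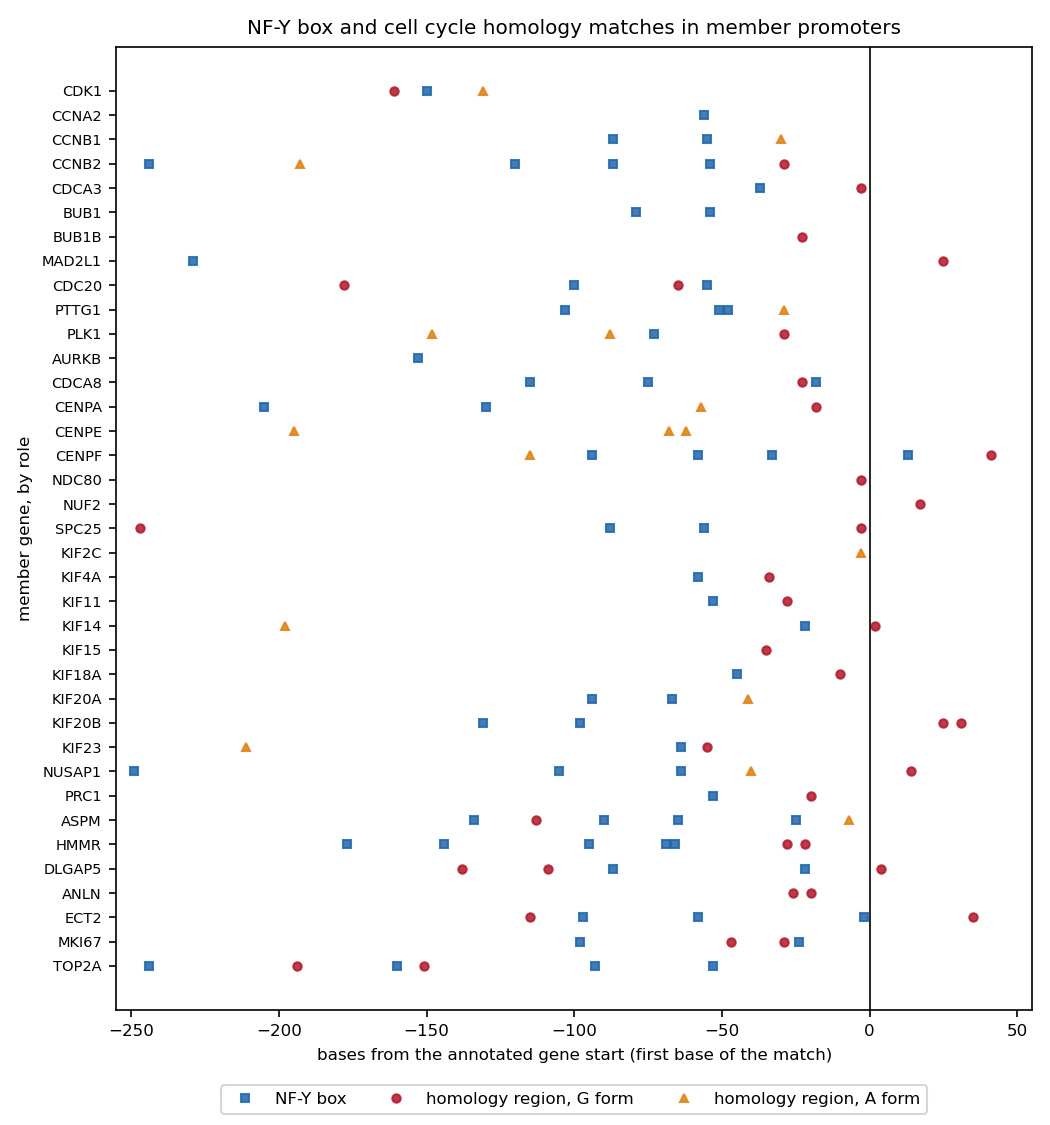
Positions of the CCAAT box of NF-Y (squares) and of both forms of the homology region (circles and triangles) relative to the start site, in bases, in the member windows (rows, with none for CDC25C, which has no match). Of the 63 boxes, 46 lie from 100 bases before the start onward, as do 30 of the 39 G forms. The same share was not computed for the A form or for windows of other genes.

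Among members whose window holds both CCAAT and homology letters, the windows of the 3 with the largest called changes are shown (KIF14, MKI67 and SPC25). CENPE, with the second largest change of the 44, was passed over because its window has no CCAAT. The windows of the cyclins CCNB1 and CCNB2 and of CDC25C were chosen by name, and that of CDC25C has none of the letters. Each is read 5′ to 3′ on the gene's strand, with the box and both forms of the homology letters, on either strand, in capitals.
KIF14 (chr1:200620702-200621001, minus strand): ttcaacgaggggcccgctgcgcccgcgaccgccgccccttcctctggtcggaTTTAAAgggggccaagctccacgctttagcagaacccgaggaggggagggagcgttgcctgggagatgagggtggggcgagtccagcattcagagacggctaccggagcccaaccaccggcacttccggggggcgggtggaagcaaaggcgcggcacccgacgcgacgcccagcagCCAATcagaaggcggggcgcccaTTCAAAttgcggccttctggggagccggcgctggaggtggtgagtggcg
MKI67 (chr10:128126374-128126673, minus strand): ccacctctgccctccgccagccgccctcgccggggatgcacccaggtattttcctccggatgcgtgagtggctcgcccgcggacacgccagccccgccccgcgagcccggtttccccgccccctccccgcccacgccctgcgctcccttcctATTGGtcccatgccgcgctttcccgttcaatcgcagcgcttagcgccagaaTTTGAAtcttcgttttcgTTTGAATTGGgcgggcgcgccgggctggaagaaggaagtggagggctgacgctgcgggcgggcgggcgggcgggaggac
SPC25 (chr2:168890381-168890680, minus strand): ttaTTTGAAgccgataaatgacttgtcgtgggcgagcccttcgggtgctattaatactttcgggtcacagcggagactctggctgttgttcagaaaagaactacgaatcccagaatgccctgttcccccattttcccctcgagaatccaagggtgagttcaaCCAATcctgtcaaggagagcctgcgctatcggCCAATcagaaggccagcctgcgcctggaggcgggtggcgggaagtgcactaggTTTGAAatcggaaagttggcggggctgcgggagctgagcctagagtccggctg
CCNB1 (chr5:69166900-69167199, plus strand): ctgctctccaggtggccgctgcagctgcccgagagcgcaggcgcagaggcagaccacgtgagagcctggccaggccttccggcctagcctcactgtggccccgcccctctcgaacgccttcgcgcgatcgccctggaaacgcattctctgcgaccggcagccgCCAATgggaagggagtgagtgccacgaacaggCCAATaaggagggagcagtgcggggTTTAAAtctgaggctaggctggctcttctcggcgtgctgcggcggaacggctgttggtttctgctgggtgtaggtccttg
CCNB2 (chr15:59104896-59105195, plus strand): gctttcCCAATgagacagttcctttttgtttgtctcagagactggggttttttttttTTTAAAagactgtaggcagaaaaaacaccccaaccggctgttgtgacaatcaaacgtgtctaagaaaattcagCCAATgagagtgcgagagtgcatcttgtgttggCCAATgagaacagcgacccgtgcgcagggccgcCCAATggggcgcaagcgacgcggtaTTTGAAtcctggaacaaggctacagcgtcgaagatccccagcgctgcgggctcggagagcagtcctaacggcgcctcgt
CDC25C (chr5:138338306-138338605, minus strand): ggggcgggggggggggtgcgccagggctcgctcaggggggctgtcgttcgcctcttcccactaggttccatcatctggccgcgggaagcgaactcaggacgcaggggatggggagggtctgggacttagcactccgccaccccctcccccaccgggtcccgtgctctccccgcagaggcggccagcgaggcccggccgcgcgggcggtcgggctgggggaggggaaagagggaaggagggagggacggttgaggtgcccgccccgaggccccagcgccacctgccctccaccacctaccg

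CCNB1 and CCNB2, which pair with CDK1, both have a run of CCAAT boxes followed by homology letters, TTTAAA at 30 bases before the start in CCNB1 and TTTGAA at 29 bases before it in CCNB2. In SPC25 a pair of boxes at 88 and 56 bases before the start precedes TTTGAA at 3 bases before it. The MKI67 window has a TTTGAA that shares bases with a reversed CCAAT close to the start. CCNB2, which has the most boxes of the 6, had a log2 change of -0.31. CDC25C, with none of these letters in its window, had -0.31, and other start sites of a gene were not searched. Any relation of the letters to the changes was not tested.

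Genes that bring the cell into mitosis were all lower: 7 of 7 fell in Z9 and in the mean, and 5 of 7 in Z2 and in Z5, with a median of -0.32 in the mean comparison. CDK1, the kinase that drives entry, was at 47.0, 41.9 and 36.3 CPM in the Empty wells, 34.3, 36.4 and 31.0 in wells of Z2, 35.9, 31.1 and 28.5 in those of Z5 and 28.6, 28.2 and 32.4 in those of Z9. It fell by 0.39 on the log2 scale in the mean of the labelled lines (SE 0.08, adjusted p = 0.00186 by edgeR), and only Z2 well b reached the lowest Empty well. CCNB1, cyclin B1, CDK1's main partner, was at 66.7, 59.0 and 53.8 CPM in Empty, 47.4, 46.0 and 42.1 in wells of Z2, 52.5, 44.98 and 44.6 in those of Z5 and 43.6, 42.7 and 48.6 in those of Z9. No labelled well reached the lowest Empty well, and the fall was 0.38 (SE 0.07, edgeR adjusted p = 0.00046). CCNA2, cyclin A2, whose level begins to climb in S phase, fell in Z5 and Z9 (log2 changes -0.33 and -0.47) and was at -0.24 with an adjusted p of 0.076 by edgeR in Z2.

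FOXM1, the forkhead factor that activates many of the other members in G2, was at 35.6, 32.4 and 30.1 CPM in Empty, 26.8, 26.3 and 25.2 in wells of Z2, 30.0, 25.3 and 22.6 in those of Z5 and 27.6, 24.3 and 28.1 in those of Z9. The groups did not overlap, although Z5 well a came close to the lowest Empty well, and FOXM1 fell by 0.32 (SE 0.07, edgeR adjusted p = 0.00434). CDC25C, the phosphatase that activates CDK1, and CDCA3, a factor for the destruction of the CDK1 inhibitor WEE1, had log2 changes of -0.31 and -0.28. Without Empty well a, the calls of CCNB2, CDC25C, CDCA3 and FOXM1 in the mean comparison were lost, with adjusted p by edgeR of 0.0535 for FOXM1 to 0.237 for CDCA3. Those of CDK1, CCNA2 and CCNB1 held without any 1 library.

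Checkpoint and anaphase genes were less uniform, with 5 of 7 called lower in Z2, 4 in Z5, 5 in Z9 and 5 in the mean (median -0.34). BUB1, a checkpoint kinase at the kinetochore, was at 42.7, 37.3 and 35.1 CPM in Empty, 27.2, 35.8 and 26.9 in wells of Z2, 34.0, 27.8 and 27.1 in those of Z5 and 26.8, 25.9 and 26.4 in those of Z9. It fell by 0.42 (SE 0.09, edgeR adjusted p = 0.00284), with Z2 well b alone inside the Empty range. BUB1B and MAD2L1, which form the inhibitor of the anaphase promoting complex, had log2 changes of -0.34 and -0.39, and CDC20, the activator that this inhibitor holds, had -0.40, each with adjusted p under 0.05 by edgeR. CDC20 was at 45.4 ± 4.34 CPM in Empty, 31.3 ± 2.34 in wells of Z2, 35.3 ± 3.61 in those of Z5 and 36.8 ± 2.10 in those of Z9 (SD, n = 3 wells).

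UBE2C and PTTG1 were near the small end of the range. UBE2C, the ubiquitin-conjugating enzyme of the anaphase promoting complex, was at 20.9, 19.7 and 18.3 CPM in Empty, 16.4, 16.4 and 17.1 in wells of Z2, 18.2, 16.8 and 15.1 in those of Z5 and 16.3, 16.4 and 19.4 in those of Z9. It fell by 0.22 in the mean (SE 0.07, edgeR adjusted p = 0.0272), by line it was called in Z2 and not in Z5 or Z9, and the call in the mean was lost without Empty well a (adjusted p by edgeR 0.184), Empty well b (0.0868) or Z9 well b (0.0520). PTTG1, securin, which holds back separase, was at 24.1, 23.8 and 19.5 CPM in Empty, 18.7, 22.6 and 18.4 in wells of Z2, 20.9, 19.5 and 17.6 in those of Z5 and 17.02, 18.6 and 20.4 in those of Z9, so that 4 labelled wells were at or above the lowest Empty well. Its log2 change of -0.22 (95% interval -0.39 to -0.05) was not called by edgeR (adjusted p = 0.0582) and was called by DESeq2 (adjusted p = 0.0467), with adjusted p from 0.0145 to 0.281 over the alternatives tried. TTK, the kinase that starts checkpoint signalling, varied widely between the wells of Z2, where it was at 9.83, 14.3 and 9.29 CPM, and it was called in the mean of the labelled lines without Z2 well b (log2 change -0.34, edgeR adjusted p = 0.00192) and not with it (-0.27, adjusted p = 0.0840).

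For the Aurora and Polo kinases and Aurora B's partners in the chromosomal passenger complex, every member was called lower in every labelled line. No other role had this (5 of 5 in Z2, Z5, Z9 and the mean, median -0.39 in the mean). The role is set apart by calls only, as all 44 members had negative values in each line. In Z5 the median was -0.33 for the role and for the 44. Without Empty well a, 4 of the 44 were called in Z5 (2.7% of all tested genes), so not all 5 calls there held. AURKA, Aurora A, the kinase of the spindle poles, was at 73.6, 63.1 and 59.8 CPM in Empty, 51.0, 48.1 and 45.1 in wells of Z2, 59.8, 47.7 and 48.7 in those of Z5 and 51.1, 46.9 and 51.5 in those of Z9. Its fall of 0.39 (SE 0.07, edgeR adjusted p = 0.000842) came with labelled wells that were all below the Empty ones, Z5 well a only just. PLK1, Polo-like kinase 1, with tasks from entry to cytokinesis, was at 94.3, 81.6 and 73.8 CPM in Empty, 62.4, 65.1 and 59.4 in wells of Z2, 75.7, 61.9 and 64.3 in those of Z5 and 65.5, 60.7 and 69.0 in those of Z9. PLK1 fell by 0.36 (SE 0.07, edgeR adjusted p = 0.00147), and Z5 well a was inside the Empty range.

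AURKB, Aurora B, the passenger kinase that corrects faulty attachments, was at 19.4, 17.7 and 17.6 CPM in Empty, 14.5, 13.7 and 13.1 in wells of Z2, 16.5, 13.2 and 13.8 in those of Z5 and 13.2, 12.8 and 13.4 in those of Z9. BIRC5, survivin, which targets that kinase to chromosomes, was at 65.1, 56.7 and 51.2 CPM in Empty, 42.0, 37.8 and 37.2 in wells of Z2, 50.1, 40.6 and 43.5 in those of Z5 and 42.8, 40.2 and 46.0 in those of Z9. Neither gene had a labelled well in the Empty range. AURKB fell by 0.40 (SE 0.07, edgeR adjusted p = 0.000294) and BIRC5 by 0.45 (SE 0.07, edgeR adjusted p = 0.000289), and CDCA8, borealin, the third passenger member here, had a log2 change of -0.37. All 5 calls in the mean comparison held without any 1 library. Z2 well b, high for most of the other genes, had an index of -0.13 over these 5 genes, between -0.11 in Z2 well a and -0.21 in Z2 well c. By gene this was split: among the Z2 wells, PLK1 and CDCA8 were highest in well b, and AURKA, AURKB and BIRC5 in well a.

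At the centromere and kinetochore, 4 of 6 genes fell in Z2, 4 in Z5, 6 in Z9 and 5 in the mean (median -0.38), and both the second largest and the smallest change of the 44 were found here. CENPE, the motor that carries chromosomes to the spindle equator, was at 21.4, 19.0 and 17.1 CPM in Empty, 12.9, 16.2 and 11.5 in wells of Z2, 15.1, 13.3 and 12.1 in those of Z5 and 12.7, 10.9 and 13.1 in those of Z9. It fell by 0.55 (SE 0.10, edgeR adjusted p = 0.000561), to 0.683 of the Empty level, with no overlap between the groups. SPC25, a subunit of the NDC80 complex that binds microtubules, and one of the pair of members with the lowest CPM before correction for length, was at 5.89, 6.19 and 5.81 CPM in Empty, 5.15, 4.98 and 3.84 in wells of Z2, 4.89, 4.07 and 4.14 in those of Z5 and 3.41, 4.01 and 4.39 in those of Z9. SPC25 fell by 0.47 (SE 0.10, edgeR adjusted p = 0.00256), again with no overlap.

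SPC25 was called in Z2 with an edgeR adjusted p of 0.0488, and the other 2 members from the same complex were not called there; the differences between them were not tested. NDC80, its namesake subunit, was at 9.87, 8.84 and 8.76 CPM in Empty, 8.44, 8.70 and 8.34 in wells of Z2, 7.64, 7.54 and 7.12 in those of Z5 and 7.17, 7.38 and 7.61 in those of Z9, so that the Z2 wells lay just under the Empty ones. Its fall in the mean was 0.24 (SE 0.07, edgeR adjusted p = 0.0125), a call that was lost without Empty well a (adjusted p by edgeR 0.124), and in Z2 its log2 change of -0.11 was not called (edgeR adjusted p = 0.361). NUF2, the partner of NDC80 in the complex, was at 16.97, 14.2 and 13.1 CPM in Empty, 14.5, 15.8 and 13.1 in wells of Z2, 14.9, 12.7 and 11.5 in those of Z5 and 11.2, 10.4 and 12.03 in those of Z9. The Z2 wells of NUF2 lay inside the Empty range and the Z9 wells all below it: the log2 change was -0.02 in Z2 (edgeR adjusted p = 0.897), -0.17 in Z5 (0.314) and -0.39 in Z9 (0.0193). CENPA, the histone variant that marks centromeres, and CENPF, an outer kinetochore protein, had log2 changes of -0.38 and -0.37 in the mean. CENPA was lowest of all wells in Z2 well b (7.19 CPM, against 10.1 and 8.96 in Z2 wells a and c), the reverse of that well's place for most members.

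**Figure D4:**
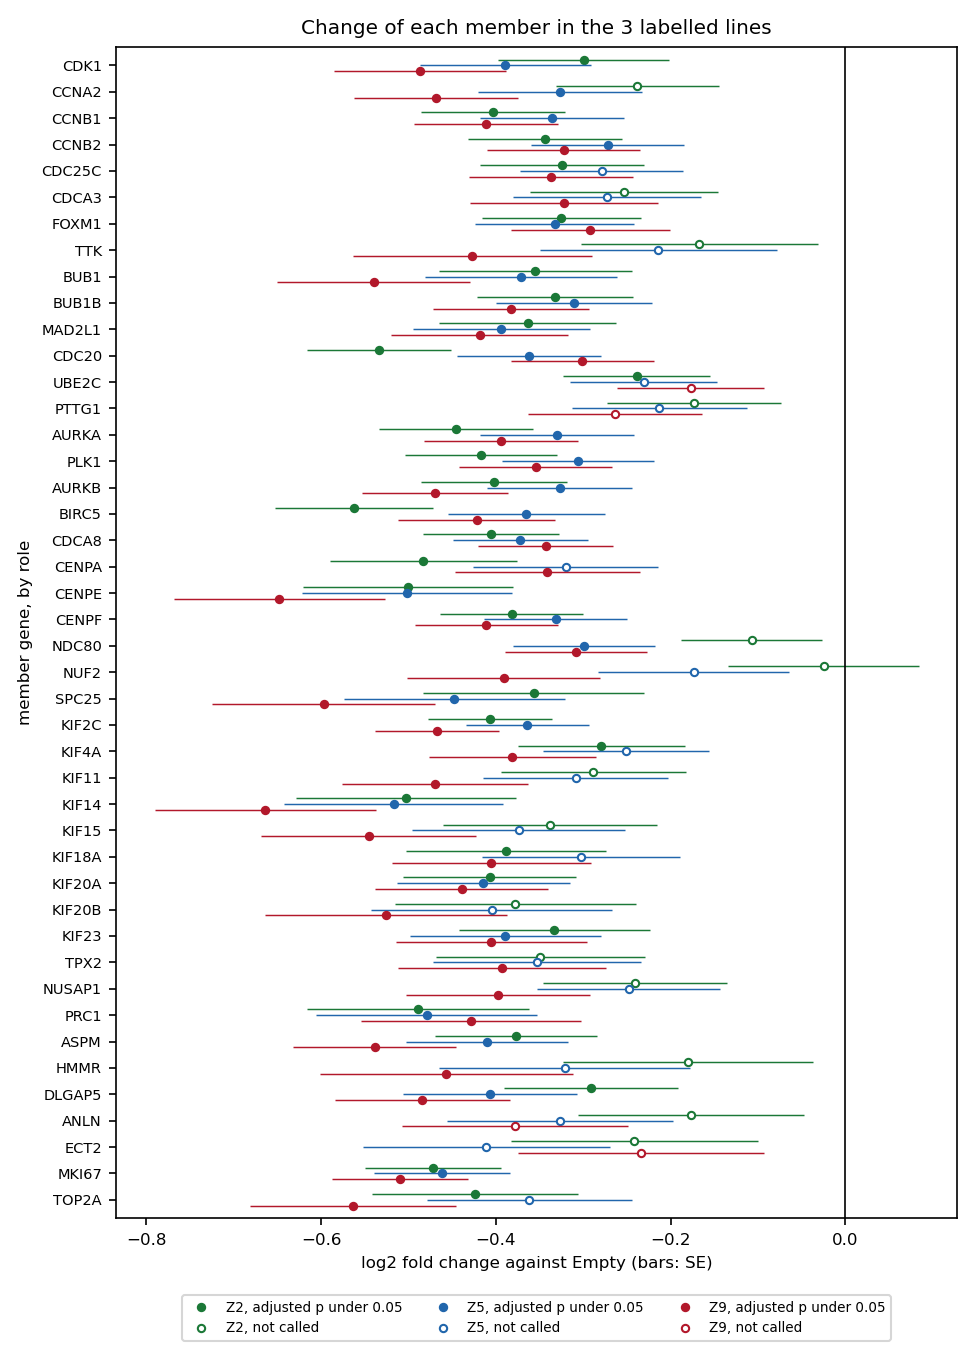
Log2 change of each of the 44 genes (rows, by role) against Empty in Z2, Z5 and Z9, with bars of 1 SE and filled points for adjusted p under 0.05. All points lie left of 0, from -0.66 for KIF14 in Z9 to -0.02 for NUF2 in Z2.

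All 9 kinesins, the motors that build and move the spindle, fell in Z9 and in the mean (median -0.41), and 6 fell in Z2 and 4 in Z5. KIF14, a motor of the midzone and the late steps of division, had the largest change of the 44: it was at 16.6, 14.0 and 12.7 CPM in Empty, 10.3, 11.6 and 8.504 in wells of Z2, 11.6, 9.59 and 8.89 in those of Z5 and 9.33, 8.26 and 9.63 in those of Z9. Every labelled well was below every Empty well, and the level in the mean comparison was 0.678 of that in Empty, a fall of 0.56 (SE 0.10, edgeR adjusted p = 0.000645). KIF20B, a motor of cytokinesis, was at 28.0, 24.9 and 21.4 CPM in Empty, 18.4, 22.6 and 16.05 in wells of Z2, 21.8, 16.9 and 17.3 in those of Z5 and 18.4, 15.0 and 18.1 in those of Z9. Its wells varied more, with Z2 well b and Z5 well a inside the Empty range, and its fall of 0.44 (SE 0.11, edgeR adjusted p = 0.0109) was not called without Empty well a (adjusted p by edgeR 0.0867).

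KIF18A, which damps chromosome movement at the plate and is the other of the pair with the lowest CPM, was at 5.91, 5.79 and 5.58 CPM in Empty, 4.30, 4.73 and 4.16 in wells of Z2, 5.06, 4.49 and 4.43 in those of Z5 and 3.67, 4.46 and 4.90 in those of Z9. It fell by 0.37 (SE 0.09, edgeR adjusted p = 0.00691) with no overlap of the groups. KIF2C, a depolymerase that frees wrongly attached microtubules, had the most even wells among the kinesins of Z2, with 30.8 ± 2.08 CPM in Empty, 23.2 ± 0.236 in wells of Z2, 23.9 ± 0.816 in those of Z5 and 22.3 ± 2.11 in those of Z9 (SD, n = 3 wells) and an edgeR adjusted p of 4.33e-05 in the mean. The remaining 5 ranged from -0.42 for KIF15, a motor that helps keep spindle poles apart, and KIF20A, a midzone motor, to -0.30 for KIF4A, which organises midzone and chromosome arms. KIF11, the motor that separates the poles, had -0.36 and KIF23, which bundles midzone microtubules, -0.38. Of these, KIF4A, KIF11 and KIF15 lost their call in the mean without Empty well a.

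Among the other spindle and midzone proteins, 3 of 6 fell in Z2, 3 in Z5, 6 in Z9 and 5 in the mean (median -0.38). TPX2, which activates Aurora A and seeds microtubules, is the second most counted member: it was at 106, 96.3 and 83.0 CPM in Empty, 72.3, 84.2 and 67.1 in wells of Z2, 84.98, 67.9 and 70.1 in those of Z5 and 66.2, 68.6 and 82.1 in those of Z9. A well each of Z2 and Z5 reached the Empty range, Z9 well c came near it, and the fall of 0.36 (SE 0.10, edgeR adjusted p = 0.0149) was not called without Empty well a (adjusted p by edgeR 0.102) or Empty well b (0.0550). PRC1, the crosslinker of the midzone, was at 48.1, 39.9 and 34.8 CPM in Empty, 30.4, 30.8 and 26.1 in wells of Z2, 34.1, 28.0 and 25.9 in those of Z5 and 29.2, 27.9 and 34.0 in those of Z9. All its labelled wells were below the lowest Empty well, and it fell by 0.47 (SE 0.10, edgeR adjusted p = 0.00448).

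ASPM, which focuses spindle poles, was at 38.3, 34.9 and 34.1 CPM in Empty, 27.5, 31.1 and 24.0 in wells of Z2, 30.1, 25.8 and 24.8 in those of Z5 and 26.6, 22.6 and 24.8 in those of Z9, and it fell by 0.44 (SE 0.07, edgeR adjusted p = 0.000376) with no overlap. NUSAP1 and DLGAP5, which bind and stabilise spindle microtubules, had log2 changes of -0.30 and -0.39, and the call of NUSAP1 was lost without Empty well a or b. HMMR, a microtubule-binding partner of TPX2, was not called in the mean (log2 change -0.32, 95% interval -0.57 to -0.07, edgeR adjusted p = 0.0572), although it was with DESeq2 (adjusted p = 0.0221) and with the replicate block (edgeR adjusted p = 0.0484). Its Z2 wells were spread from 12.1 to 20.4 CPM, the highest being well b. HMMR was called without that well (-0.39, edgeR adjusted p = 0.00059) and without Z2 well c (-0.27, edgeR adjusted p = 0.0364), and over all the alternatives tried its adjusted p ran from 0.00059 to 0.280.

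Neither cytokinesis gene was called in any labelled line or in the mean (median -0.29). ANLN, anillin, a scaffold of the contractile ring, was at 65.0, 62.9 and 50.9 CPM in Empty, 49.3, 64.2 and 44.7 in wells of Z2, 51.9, 44.2 and 46.4 in those of Z5 and 44.4, 43.2 and 49.8 in those of Z9. ECT2, the exchange factor that switches on RhoA at the cell's equator, was at 74.1, 68.9 and 56.5 CPM in Empty, 57.2, 64.0 and 47.4 in wells of Z2, 59.9, 44.9 and 45.05 in those of Z5 and 58.6, 52.0 and 59.0 in those of Z9. In both genes Empty well c was far below the other Empty wells, and labelled wells lay above it. The log2 changes in the mean were -0.29 (95% interval -0.52 to -0.07, edgeR adjusted p = 0.0582) for ANLN and -0.30 (95% interval -0.55 to -0.05, edgeR adjusted p = 0.0804) for ECT2. DESeq2 called both (adjusted p = 0.0120 and 0.0165), and over all alternatives the adjusted p ran from 0.00690 to 0.256 and from 0.0143 to 0.337, the highest values being those without Empty well a.

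The 2 genes of mitotic chromosomes had the largest median of any role (-0.47 in the mean comparison). MKI67, which coats chromosomes and is the antigen of the Ki-67 proliferation stain, was at 74.5, 66.2 and 61.6 CPM in Empty, 48.6, 51.2 and 45.9 in wells of Z2, 52.5, 46.3 and 47.9 in those of Z5 and 48.1, 42.5 and 51.4 in those of Z9. The gap between the groups was clear, the highest labelled well being 52.5 CPM, and the fall of 0.48 (SE 0.06, edgeR adjusted p = 2.58e-05) left 0.717 of the Empty level. TOP2A, the topoisomerase that untangles sister chromatids and the most counted member, was at 268, 230 and 201 CPM in Empty, 173, 197 and 152 in wells of Z2, 207, 167 and 170 in those of Z5 and 160, 147 and 166 in those of Z9. TOP2A fell by 0.45 (SE 0.09, edgeR adjusted p = 0.00391), with Z5 well a in the Empty range.

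Between the labelled lines, no member was called in any pair by edgeR, where the share of all tested genes called lower and higher was 0% and 0.00654% for Z5 minus Z2, 3.21% and 1.96% for Z9 minus Z2, and 1.09% and 0.432% for Z9 minus Z5. At an unadjusted p under 0.05 by edgeR, 1 member was lower and 1 higher in Z5 than in Z2. In Z9, 3 were lower and 1 higher than in Z2, and none differed between Z9 and Z5. Of all 15289 tested genes, 703 were lower and 868 higher at that threshold in Z5 minus Z2. These all-gene counts were 1934 and 1721 in Z9 minus Z2, and 1224 and 986 in Z9 minus Z5. The medians of the 44 log2 differences were -0.01, -0.07 and -0.07. The widest difference was that of NUF2, at -0.37 in Z9 minus Z2 (SE 0.11, 95% interval -0.60 to -0.13, edgeR adjusted p = 0.0617), which DESeq2 called (adjusted p = 0.0249). CDC20 went the other way, at 0.23 in Z9 minus Z2 (SE 0.08, 95% interval 0.06 to 0.41, edgeR adjusted p = 0.101), and it was called without Z2 well a (0.29, edgeR adjusted p = 0.0337). NDC80 was at -0.20 in Z9 minus Z2 (95% interval -0.37 to -0.03, edgeR adjusted p = 0.145). These intervals leave room for differences between lines about as large as the changes against Empty, and the 3 comparisons with Empty share the same 3 control wells.

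Genes of the same pathway outside the 44 behaved in several ways, read against the 12.6% lower and 13% higher of all tested genes in the mean of the labelled lines against Empty. Among 82 other genes of mitosis, 54 fell and none rose (median -0.32). ESPL1, separase, which cuts the cohesin ring, was at 15.2 ± 1.62 CPM in Empty and 10.1 ± 0.354, 10.7 ± 1.08 and 11.1 ± 0.413 in Z2, Z5 and Z9 (SD, n = 3 wells), a log2 change of -0.52 (edgeR adjusted p = 4.7e-05). HJURP, the chaperone that deposits CENPA, had -0.42 and CENPI, an inner kinetochore protein, -0.66. Without Empty well a, 27 of the 82 were called lower, these 3 among them.

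Of 17 subunits and partners of the anaphase promoting complex, the ligase that the checkpoint restrains, 1 fell and 2 rose (median -0.07). ANAPC16 rose by 0.20 (edgeR adjusted p = 0.00297) and CDC16 by 0.17 (adjusted p = 0.0198), both subunits, and FBXO5, an inhibitor of the complex, fell by 0.28 (adjusted p = 0.00887). The calls of CDC16 and FBXO5 were lost without Empty well a (adjusted p by edgeR 0.174 and 0.122).

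Of 23 genes for the transcriptional control of mitotic genes, 11 fell and 1 rose (median -0.11). MYBL2, the B-MYB that works with MuvB and FOXM1, was at 52.8 ± 7.38 CPM in Empty and 41.3 ± 0.857, 41.7 ± 3.67 and 38.4 ± 3.5 in Z2, Z5 and Z9 (SD, n = 3 wells), a log2 change of -0.38 (edgeR adjusted p = 0.00112). E2F3, an activating E2F, had -0.19 and NFYA, the sequence-reading subunit of NF-Y, -0.18, the latter call being lost without Empty well a (adjusted p by edgeR 0.0642). RBL2, p130, the pocket protein of DREAM in resting cells, was the single gene that rose (0.18), and 4 of the 23 were called lower and none higher without Empty well a. The other NF-Y subunits NFYB and NFYC were not called, at -0.05 and -0.10.

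The decrease was not limited to mitosis. Of 37 genes of S phase and DNA replication, 28 fell and none rose (median -0.33). UHRF1, which keeps DNA methylation at replication forks, was at 67.6 ± 14.6 CPM in Empty and 36.9 ± 2.33, 40.6 ± 5.56 and 34.2 ± 4.35 in Z2, Z5 and Z9 (SD, n = 3 wells), a log2 change of -0.86 (edgeR adjusted p = 0.000419), larger in size than that of any of the 44. CDC45, part of the replicative helicase, had -0.59 and POLE, the catalytic subunit of a replicative polymerase, -0.38. The S phase index was 0.46, 0.23 and 0.08 in the Empty wells and between -0.19 and 0.04 in the labelled wells, so Empty well a was the highest here too, and 16 of the 37 were called lower without it.

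The G1 cyclins and inhibitors of cyclin-dependent kinases went both ways: of 19 listed genes 18 were tested, 6 fell and 7 rose (median 0.04). CDKN2B, p15, an inhibitor of CDK4 and CDK6, was at 4.29 ± 0.702 CPM in Empty and 6.22 ± 0.409, 6.51 ± 0.380 and 6.70 ± 0.283 in Z2, Z5 and Z9 (SD, n = 3 wells), a log2 change of 0.59 (edgeR adjusted p = 0.000214). CCND2, cyclin D2, rose by 0.75 from a low level, and CDKN1B, p27, fell by 0.16. Without Empty well a, 1 of the 18 was called lower and 2 higher, beside 980 lower and 1127 higher of all 15486 genes tested in that fit.

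Counts rise with transcript length, so levels of different members were compared per kilobase of exon (GENCODE release 29). On this scale TOP2A had the highest level in Empty, at 36.2 CPM per kilobase, followed by TPX2 (26.4), CCNB1 (23.4), AURKA (22.4) and CDC20 (22.3), and KIF18A the lowest (1.23), after CDCA3 (1.63) and KIF14 (1.98). The 22 members longer than 4217 bases and the 22 shorter ones had the same median log2 change of -0.38. The members lie on 17 chromosomes. Each had a lower log2 change than the median of the tested genes within 2 Mb of it, where those medians ran from -0.11 to 0.32 over 3 to 86 neighbours. The highest member value, -0.20, was below all those medians, so this adds nothing to the members' own values. A regional part in the changes was not tested. In GENCODE, exons of 18 members overlapped another gene and those of 5 by over 10% of their length, led by NUSAP1 (62.2%) and PRC1 (58.4%), each overlapped by another protein-coding gene on the same strand and PRC1 also by its antisense gene, then FOXM1 (15.9%, with ITFG2 on the opposite strand), PLK1 (12.5%) and BUB1B (10.2%). Reads in such exons may have been assigned otherwise by the authors' annotation. Near copies in the table, KIF4B, PTTG2 and PTTG3P, had 5, 0 and 1 counts in all libraries together.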

How the data were processed

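RNA was sequenced from 12 HepG2 libraries. The authors deposited whole-number read counts for each gene symbol, made with STAR and featureCounts on hg38, per the submitters' processing notes. For the versions, the annotation, the strand setting and reads mapping to several places, the answer was not given in the sources used here. Samples were grouped by title into 4 lines of 3 wells. The 44 members and the other gene lists were chosen with earlier results of these data known, so no list is independent evidence of its direction.

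The test was that of edgeR 4.0.16 (R 4.3.3), with filterByExpr by group, TMM scaling and 1 robust quasi-likelihood fit with 4 group means over all 12 libraries (8 residual degrees of freedom), with Benjamini-Hochberg adjustment over the 15289 genes tested in each comparison. SE is the log2 fold change over the square root of F. CPM are on TMM-scaled totals, and the well index uses log2 CPM with a prior count of 2. The edgeR step alone was tested on simulated counts, with each gene drawn independently. Full values are given for the 10 called members with the largest change in the mean comparison, the 4 with the smallest, the 2 highest and 2 lowest in CPM, and FOXM1, CCNB1, CDK1, PLK1, AURKA and AURKB. From each other list, up to 3 genes with the smallest adjusted p are named. NFYB, NFYC, RBL2, TTK, HMMR, ANLN, ECT2, KIF2C, CDC20 and the values of CENPA by well were added after their values were seen. Alternatives were DESeq2 1.42.0, its size factors, 2 other filters, a replicate block, a fit of only the groups compared, sums of the wells of a line, and leaving out each library. Promoter windows are RefSeq's, on GRCh38.p14.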

Additional observations from a re-analysis of the deposited data

How the results depend on the processing

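No call changed direction under the alternatives. For the 44 genes, leaving out 1 library gave 14 to 35 called lower in Z2, 4 to 35 in Z5 and 22 to 41 in Z9. In the mean of the labelled lines it gave 26 to 42, and in Z9 minus Z2 0 to 1 were called higher. The share of all tested genes called lower in these fits ran from 6.14% to 13.8% in Z2 and from 2.70% to 10.2% in Z5. It ran from 5.53% to 13.5% in Z9 and from 6.33% to 15.7% in the mean. In Z9 minus Z2, 22 to 1128 of all tested genes were called higher. The count lower in Z9 minus Z2 was 1 (NUF2) with DESeq2 and 1 (NUF2) with the replicate block, against 4.93% and 5.81% of all tested genes. With the block the count higher was 1 (CDC20, 0.24, edgeR adjusted p = 0.0391), against 623 of all 15289 tested genes. The block gave 34, 34, 39 and 41 called lower in Z2, Z5, Z9 and the mean, against 13.1%, 8.46%, 11.2% and 14% of all tested genes. The labels do not say what a well letter marks, and the wells were not taken as pairs. Same-letter wells of different lines had correlations from -0.101 to 0.173, 5 of 18 over 0.1. The same letter correlated best in 20 of 36 tests of a well against another line, and 3 of the 12 wells correlated best with their own letter in all 3 other lines. With 1 library left out, the other mitosis genes had 27 to 62 called lower, the S phase genes 16 to 31 lower and 0 to 1 higher, and the transcriptional control genes 4 to 11 lower and 0 to 1 higher. The anaphase promoting complex had 0 to 3 lower and 1 to 3 higher, and the G1 list 1 to 6 lower and 2 to 8 higher. The list counts are for the mean comparison, in which 6.33% to 15.7% of all tested genes were called lower. Those called higher numbered 1127 to 2357. For the 44 genes and the other lists, the lowest counts of called lower genes were those without Empty well a, for reasons that were not tested. With only the groups compared, 23, 26 and 39 members were called in Z2, Z5 and Z9, against 7.32%, 10.7% and 13.5% of all tested genes. With wells summed per line and the lines as units (3 against 1), 26 of the 44 were called lower, against 2.69% of all tested genes. This fit assumes that the lone control line varies like the others. The spread between control lines was not measured, so it does not show that the result holds over lines. The difference of the well index between the labelled lines and Empty was -0.37, and -0.44 to -0.29 with 1 library left out. The lowest count of a member in a well was 185, and no fit at another depth or number of lines was run.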
